A study of Homo sapiens with 3 samples.

Results

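The C/EBP family, described here by peaks of FOXM1 chromatin immunoprecipitation, comprised 7 genes: CEBPA, CEBPB, CEBPD, CEBPE, CEBPG, CEBPZ and DDIT3. Peaks were assigned to a gene where their summit, the position of highest signal, lay inside it or within 20 kb of it in RefSeq GRCh38. The genes were selected on peak values of these same libraries, since the peak at CEBPA had the highest fold enrichment of replicate 2, so the values below are a description and support no test. All 7 genes were found among 19974 protein-coding genes on chromosomes 1 to 22 and X, and 10 of 8271 peaks of replicate 2 and 10 of 11502 peaks of replicate 3 lay in their windows. The libraries were made from untreated cells of Huh7, an established line of human hepatocellular carcinoma. One group was input chromatin without antibody (1 library, with no peaks analysed here), and the other was immunoprecipitated with the anti-FOXM1 antibody G-5 (2 libraries, replicates 2 and 3). The labels name no separate cultures behind the replicates, no other line and no control antibody or FOXM1-depleted cells, so whether a peak is specific to FOXM1 was not tested. The lists hold no expression values, and the hepatocyte character of the cells was not checked.

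C/EBP proteins are basic leucine zipper transcription factors that bind DNA as homodimers or heterodimers. C/EBPα, encoded by CEBPA, drives hepatocyte and granulocyte differentiation and restrains proliferation, and C/EBPβ and C/EBPδ act in the acute phase response of the liver. C/EBPε acts in granulocyte maturation, C/EBPγ is a short form that mainly serves as a dimer partner, and DDIT3 encodes CHOP, the stress-induced member. CEBPZ bears the name but encodes a CCAAT-binding protein linked to ribosome formation, without the leucine zipper of the others. FOXM1 is a forkhead factor of proliferating cells.

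Of the 7 genes, CEBPA and CEBPB carried broad peaks over a gene end in both libraries, and CEBPD had peaks on and beside its upper-coordinate end, of which replicate 3 left the end itself uncovered. DDIT3 had peaks of both libraries nearby but not on its start, CEBPG had peaks of both libraries that did not coincide, and CEBPE and CEBPZ had none in the window. In numbers, 5 of 7 had a peak in replicate 2, against 41.3% of all protein-coding genes, and 5 of 7 had one in replicate 3, against 49.7%. A shared locus, where peaks of the 2 libraries overlapped by at least 1 bp and were merged, lay within the window of 4 of 7, against 32.4% of all genes. It lay within 1 kb of an end of 3 of 7, against 19.1%. With so few genes chosen for a high peak, nothing is read from these shares. Genes no longer than CEBPZ, the longest member at 29985 bp, had a shared locus in the window in 31% of cases.

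**Figure D1:**
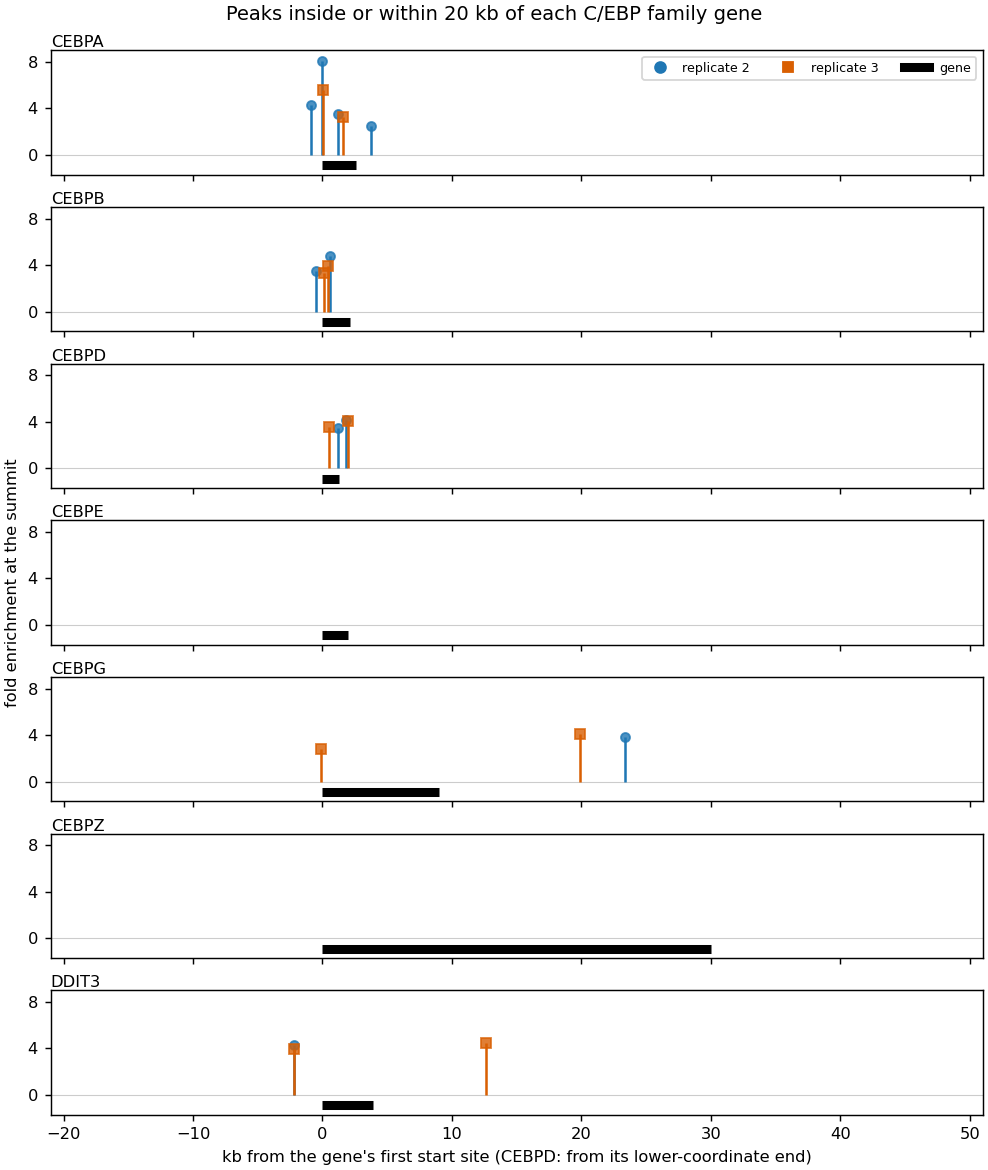
Summits of all peaks inside or within 20 kb of each C/EBP family gene, by distance in kb from its first annotated start site in the direction of transcription (CEBPD from its lower-coordinate end), with fold enrichment on the vertical axis, circles for replicate 2, squares for replicate 3 and a black bar for the gene. CEBPA, CEBPB and CEBPD have summits of both libraries at the gene, and CEBPE and CEBPZ have none.

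RefSeq promoter windows (GRCh38.p14, 250 bases before to 50 bases after an annotated start site) were found for 6 of the 7 genes, 9 windows in all. CEBPD had none. Both libraries had a peak over a window of CEBPA and of CEBPB, against 14.9% of the 15812 protein-coding genes with a window. For CEBPG only replicate 3 had one, and for CEBPE, CEBPZ and DDIT3 neither did. The windows below show this contrast: the CEBPA window holds the summit of the strongest CEBPA peak in each library, the CEBPB and CEBPG windows each hold a summit of replicate 3, and the CEBPE window stands for a member without a peak. Each reads 5′ to 3′ on the gene's strand, and capitals mark every match of the motifs searched other than the GC box. They lie at chr19:33302485-33302784 (minus strand) for CEBPA, chr20:50190580-50190879 (plus strand, the second of 2 start sites) for CEBPB, chr19:33373459-33373758 (plus strand, the first of 2) for CEBPG and chr14:23119206-23119505 (minus strand) for CEBPE.
CEBPA: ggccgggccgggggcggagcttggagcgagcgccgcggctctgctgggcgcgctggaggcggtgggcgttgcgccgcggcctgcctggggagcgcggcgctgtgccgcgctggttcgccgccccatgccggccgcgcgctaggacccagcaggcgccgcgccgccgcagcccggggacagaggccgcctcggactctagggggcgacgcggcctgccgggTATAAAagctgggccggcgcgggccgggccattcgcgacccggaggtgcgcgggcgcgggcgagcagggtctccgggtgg
CEBPB: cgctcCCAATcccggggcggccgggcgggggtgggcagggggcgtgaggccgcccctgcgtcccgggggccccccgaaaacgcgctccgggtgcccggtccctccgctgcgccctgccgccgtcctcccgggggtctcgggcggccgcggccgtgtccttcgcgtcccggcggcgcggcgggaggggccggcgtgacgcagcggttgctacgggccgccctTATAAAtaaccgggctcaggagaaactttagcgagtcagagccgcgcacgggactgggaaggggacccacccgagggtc
CEBPG: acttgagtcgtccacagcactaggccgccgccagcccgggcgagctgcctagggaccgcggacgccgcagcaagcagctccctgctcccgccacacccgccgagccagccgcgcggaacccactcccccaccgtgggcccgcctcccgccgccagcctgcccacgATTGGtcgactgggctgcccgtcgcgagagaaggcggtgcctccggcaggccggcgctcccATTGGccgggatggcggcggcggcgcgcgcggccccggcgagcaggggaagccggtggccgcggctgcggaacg
CEBPE: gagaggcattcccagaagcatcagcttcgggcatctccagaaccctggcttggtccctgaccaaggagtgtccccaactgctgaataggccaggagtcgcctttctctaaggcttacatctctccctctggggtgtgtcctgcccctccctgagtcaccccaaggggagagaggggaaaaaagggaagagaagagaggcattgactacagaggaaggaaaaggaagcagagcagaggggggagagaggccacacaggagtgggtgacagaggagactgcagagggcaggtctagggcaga

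Windows of the genes with a peak over the start were rich in G, C and CpG dinucleotides. The CEBPA window was 80.7% G and C with 50 CpG, a number that 1.29% of all 35116 windows reached, against medians of 58.7% and 14 CpG over all windows. The CEBPB windows had 31 and 43 CpG and those of CEBPG had 43 and 45. The windows of CEBPZ (26 CpG) and DDIT3 (26 and 27) were lower but above the median of 14, and that of CEBPE, with 2 CpG, was below it. Thus the 3 genes with a peak over a window, CEBPG in replicate 3 only, had more CpG in each window than the 3 without. The gap was narrow, 31 at CEBPB against 27 at DDIT3. With 3 genes on each side, nothing is read from it. Within CEBPG the second window, with 45 CpG, had no peak in either library.

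In the CEBPA window the capitals are a TATA box (TATAAA) at position -30, counted in bases from the start site, and CEBPB had the same motif at -29 of its second start site. A TATA box was present in 11.5% of all windows. The CEBPG window held 2 CCAAT boxes (CCAAT, on the reverse strand, at -85 and -24), a motif of 34.6% of all windows. The CEBPB window held 1. CCAAT was found in 5 of the 9 windows, among them both DDIT3 windows, which no peak covered. In the CEBPE window none of the 13 motifs matched. GC boxes (GGGCGG) were found in 6 of the 9 windows, against 45% of all windows. The CEBPA window held 2 GC boxes, and each DDIT3 window held 3. The forkhead motifs TGTTTA and TGTTTAC, of which the second contains the first, matched in 0 of 9 windows, against 12.3% and 3.42% of all windows. The cell cycle homology region forms TTTGAA (15.2% of all windows) and TTCGAA (1.45%) also matched in none. So did the C/EBP palindrome TTGCGCAA (0.151%), its spaced form TTGCNNAA (10.5%), which includes it, the cAMP response element TGACGTCA (1.85%) and the E-box CACGTG (7.26%). The composite C/EBP-ATF motif TGATGNAA (3.62% of all windows) matched once, in the second CEBPG window. The ETS motif CCGGAA (17.2%) matched at CEBPZ and DDIT3. All motifs were searched on both strands. The 2 DDIT3 windows overlap almost entirely and the 2 CEBPB windows in part, so their matches repeat. A match or its absence concerns these letters in these windows alone.

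CEBPA (chromosome 19, 33299934 to 33302534, minus strand) carried 4 peaks in replicate 2 and 2 in replicate 3, all within 4 kb of its start site. The strongest peak of replicate 2 (33301560 to 33303191) had a fold enrichment, the deposited ratio of signal to local background, of 8.09, a −log10 q of 24.1 and its summit 31 bp before the start site. The strongest of replicate 3 (33301543 to 33303669) had fold 5.60, −log10 q of 12.6 and its summit 49 bp after the start site. Both summits therefore lay inside the promoter window printed above, that of replicate 2 next to the TATA box and that of replicate 3 on the window's last base. In rank of fold these peaks stood 1st in replicate 2 and 259th in replicate 3 on chromosomes 1 to 22 and X, and in rank of −log10 q 2nd and 63rd.

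The other peaks of the CEBPA locus were weaker and were mostly called in one library. In replicate 2 a second peak upstream (33303307 to 33304031) had fold 4.27 and −log10 q of 5.71, with its summit 879 bp before the start site. It overlapped the large peak of replicate 3 by 363 bp. Inside the gene, replicate 2 had a peak at 33301245 to 33301370 (fold 3.52, −log10 q of 3.49) and replicate 3 one at 33300892 to 33301028 (fold 3.28, −log10 q of 2.82), and these did not overlap. Beyond the far end, 1123 bp outside the gene, replicate 2 alone had a peak (33298586 to 33298812) of fold 2.47. Its −log10 q of 1.39 was close to 1.32, the lowest in that list. The next peak in this direction was in replicate 3 alone and lay outside the window, 26287 bp from the gene (fold 3.33).

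**Figure D2:**
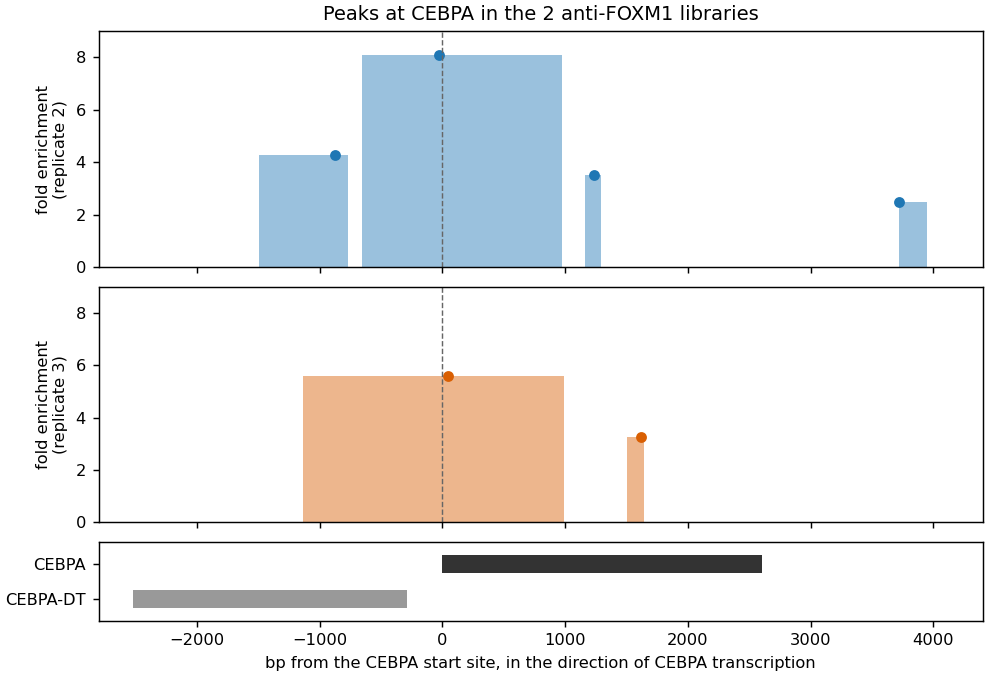
Peaks at CEBPA in replicate 2 (top) and replicate 3 (middle), as bars that span each peak and reach its fold enrichment, with a dot at the summit, by distance in bp from the CEBPA start site. Gene bodies are drawn at the bottom. The largest peak spans the start site in both libraries, with fold 8.09 and 5.60, and replicate 2 has 3 further peaks and replicate 3 has 1.

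A second transcript starts in the same stretch. CEBPA-DT, a long noncoding RNA gene (33302821 to 33305057, plus strand), has its start site 287 bp from that of CEBPA and is transcribed away from it. The strongest summit of replicate 2 lay between the start sites, 256 bp before that of CEBPA-DT, and that of replicate 3 lay 336 bp before it, inside CEBPA. The upstream summit of replicate 2 was inside CEBPA-DT, 592 bp after its start site. To which of the genes a peak belongs was not tested. The merged locus (33301543 to 33304031) covered 992 bp of CEBPA and 1497 bp outside it.

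The locus at CEBPA was the widest of the 5357 shared loci. It spanned 2489 bp against a median of 413 bp, and the next widest, at NAT8L, spanned 2045 bp. It joined 2 peaks of replicate 2 through the single peak of replicate 3. Within each list the strongest CEBPA peak was also wide, 1632 bp and 2nd in rank in replicate 2 and 2127 bp and 1st in replicate 3, against medians of 227 bp and 229 bp. The peaks coincided closely, since the whole of the 1632 bp of replicate 2 lay under the peak of replicate 3. Their summits were 80 bp apart, against a median of 92 bp over all shared loci.

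The fold at CEBPA differed between the libraries by 2.48, a gap that 52 of the 5357 shared loci (0.971%) reached in either direction. This difference is a description, since the value of replicate 2 is why the gene was chosen. Fragment counts at the summit, rebuilt from the deposited fold and p, were 60 in replicate 2 (exact Poisson 95% interval 45.8 to 77.2) and 44 in replicate 3 (31.97 to 59.1). The local backgrounds were 5.42 and 6.0 on the scaled depth, where counts are multiplied by 0.848 in replicate 2 and 0.869 in replicate 3. The counts above are not scaled, so their plain ratio to the background is not the fold. After scaling for depth, replicate 2 had 1.33 times the fragments of replicate 3, with an exact interval of 0.887 to 2.01 for counting error, from which nothing is read because the count of replicate 2 chose the gene. By the lower fold of the 2 libraries, 5.60, the locus ranked 28th of 5357.

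**Figure D3:**
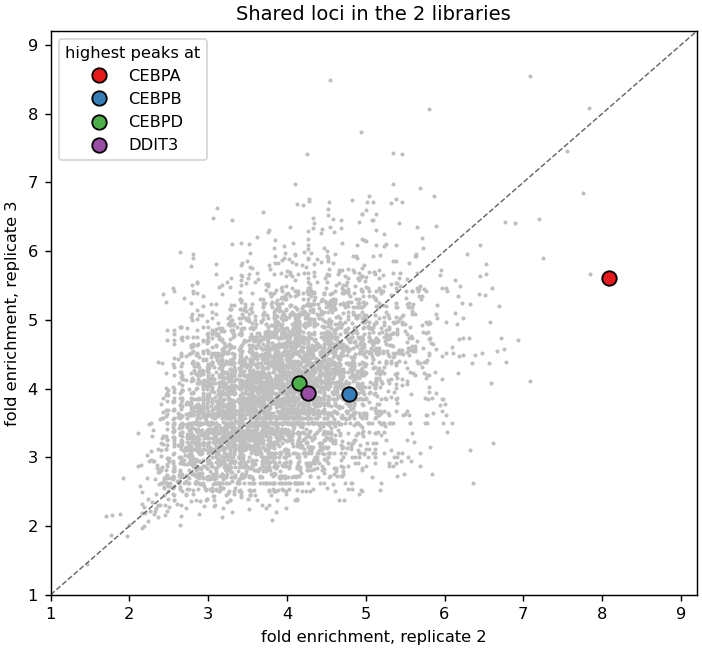
Fold enrichment of the highest peak of each library at the 5357 shared loci (grey points), with the 4 loci near C/EBP family genes in colour and a dashed line where the libraries are equal. CEBPA lies farthest to the right, at 8.09 in replicate 2 and 5.60 in replicate 3, while CEBPB, CEBPD and DDIT3 lie within the main cloud.

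The genes nearest to CEBPA in this pair of fold values were PYGO2 and SHC1, which share a locus (7.84 in replicate 2 and 5.67 in replicate 3), SRRM3 (7.25 and 5.90), and SCRIB and PUF60, which share another (7.21 and 6.47). Likeness was the distance between log2 folds over the 2 libraries, 0.05 for the first pair, 0.17 for SRRM3 and 0.27 for the last pair. Their loci were narrower, 951 bp, 292 bp and 1249 bp.

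CEBPB (chromosome 20, 50190583 to 50192690, plus strand) had 2 peaks in each library. Its main peak in replicate 2 (50190470 to 50191784, width 1315 bp) had fold 4.79, −log10 q of 8.68 and 40 fragments, with the summit 560 bp after the first start site. In replicate 3 the same stretch was split into 2 peaks, at 50190358 to 50190807 (fold 3.31, 37 fragments) and 50190910 to 50191829 (fold 3.93, 35 fragments), with summits 142 bp and 427 bp after the first start site. Both overlapped the replicate 2 peak, by 338 bp and 875 bp. A further peak of replicate 2 lay upstream (50190033 to 50190214, fold 3.52, 462 bp before the start site) and overlapped none of replicate 3.

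The merged CEBPB locus (50190358 to 50191829) was 1472 bp wide, 30th of 5357. It covered 1247 bp of the gene. Fragments at the highest summits were 1.12 times as many in replicate 2 as in replicate 3 after scaling (exact interval 0.691 to 1.81). All 4 summits also lay inside CEBPB-AS1, a noncoding gene on the opposite strand (50184603 to 50192069), between 926 bp and 1948 bp after its start site. The next peaks, outside the window, were in replicate 3 alone, 36664 bp and 37029 bp away, at an end of PEDS1-UBE2V1.

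CEBPD (chromosome 8, 47736913 to 47738164) had 2 peaks in each library. Among the 4 shared loci near the family, the folds of its highest peaks differed least between the libraries. The summits of these peaks were 162 bp apart, the farthest of the 4, against a median of 92 bp over all shared loci. Replicate 2 had fold 3.50 at 47737484 to 47738419 and 4.15 at 47738627 to 47738888. Replicate 3 had 3.57 at 47737329 to 47738077 and 4.08 at 47738177 to 47738944. All 4 peaks overlapped one of the other library, and the higher of each pair had its summit outside the gene, 564 bp and 726 bp beyond the upper-coordinate end. The merged locus (47737329 to 47738944) was 1616 bp wide, 17th of 5357, and covered 836 bp of the gene, which is 1252 bp long. The highest summits had 29 and 27 fragments, a scaled ratio of 1.05 (exact interval 0.599 to 1.84).

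Loci of CEBPA, CEBPB and CEBPD thus ranked 1st, 30th and 17th in width among all shared loci, while that of DDIT3 ranked 2017th. Their lower folds, 5.60, 3.93 and 4.08, ranked 28th, 1666th and 1297th of the 5357 shared loci, all above the median of 3.56. Width comes from the same lists as the peaks that chose the family and is given as a description. The loci of CEBPA, CEBPB and CEBPD each joined several peaks of a library, as did 11.1% of all shared loci, so their width ranks partly reflect merging. Among single peaks, the widest of CEBPB ranked 13th in replicate 2 and 158th in replicate 3, and the widest of CEBPD 80th and 340th. The local background rebuilt at the peaks of the family was 4.81 to 8.0 in replicate 2 and 3.32 to 10.0 in replicate 3. Its median was 5.37 in each library, above the median of 5.0 over all peaks of each library.

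**Figure D4:**
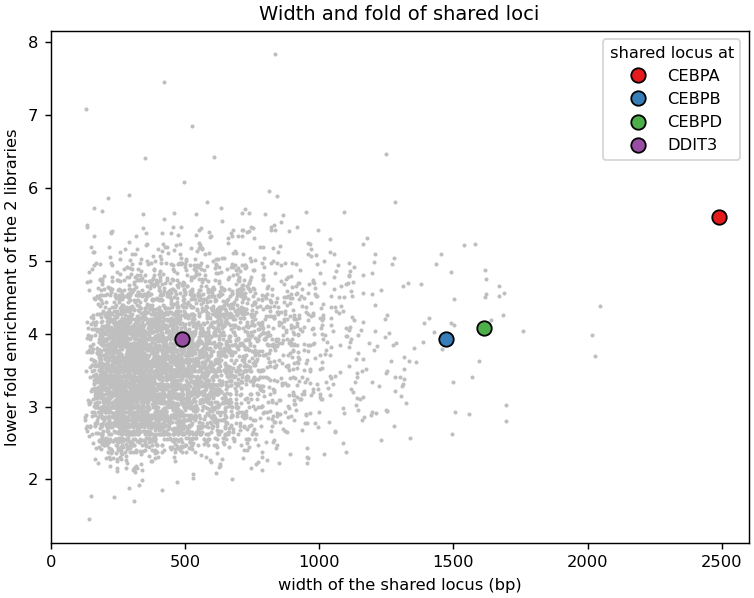
Width in bp of the 5357 shared loci (horizontal axis) against the lower fold enrichment of the 2 libraries (vertical axis), with the 4 loci near C/EBP family genes in colour. CEBPA stands apart at 2489 bp, CEBPB and CEBPD lie at 1472 bp and 1616 bp, and DDIT3 at 488 bp lies in the main cloud.

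DDIT3 (chromosome 12, 57516588 to 57520517, minus strand) had no peak inside it. The shared peaks in its window, at 57522476 to 57522963 in replicate 2 (fold 4.27, −log10 q of 5.71) and 57522631 to 57522950 in replicate 3 (fold 3.93, −log10 q of 4.43), lay 2213 bp and 2220 bp outside the gene. Their summits were 7 bp apart and fell inside MBD6 (57520715 to 57531545, plus strand), which encodes a protein with a methyl-CpG-binding domain. The annotated MBD6 start site with a window is at 57522824, 94 bp and 87 bp after these summits, so they lay in the promoter window of MBD6 and not in those of DDIT3. Replicate 3 had another peak in the DDIT3 window (57507766 to 57507959, fold 4.46), which lay inside MARS1, a methionyl-tRNA synthetase gene, 8671 bp from DDIT3. The MBD6 window (chr12:57522574-57522873, plus strand) is printed because it holds both summits. It had 36 CpG and 2 GC boxes and no other motif searched, and so has no capitals.
MBD6: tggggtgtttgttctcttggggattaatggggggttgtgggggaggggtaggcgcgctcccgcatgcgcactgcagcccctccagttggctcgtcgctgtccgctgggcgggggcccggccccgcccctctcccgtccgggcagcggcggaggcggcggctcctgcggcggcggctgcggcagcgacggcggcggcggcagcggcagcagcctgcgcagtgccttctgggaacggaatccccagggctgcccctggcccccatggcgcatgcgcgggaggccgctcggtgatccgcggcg

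CEBPG (chromosome 19, 33373709 to 33382686, plus strand) is the neighbour of CEBPA, with 71174 bp between the genes. Replicate 3 had a peak over its first start site (33373359 to 33373861, summit 94 bp before the start) with fold 2.78 and −log10 q of 3.04. This rested on 34 fragments before scaling, with a background of 10.0 on the scaled depth, the highest background among the peaks near the family. Replicate 2 had no peak there, and below the lowest −log10 q of a list a weaker signal would not be seen. The remaining peaks in the window lay downstream inside PEPD, a dipeptidase gene, with fold 4.08 in replicate 3 (33393582 to 33393703) and 3.82 in replicate 2 (33396898 to 33397197). A gap of 3194 bp separated them, so CEBPG had no shared locus.

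CEBPE (chromosome 14, 23117306 to 23119255) and CEBPZ (chromosome 2, 37201612 to 37231596) had no peak of either library in their windows. The nearest to CEBPE had fold 2.47 in replicate 2, at 45866 bp, and 3.12 in replicate 3, at 45829 bp, inside ACIN1, a chromatin and splicing gene, 129 bp and 92 bp after an annotated start site of it. The nearest to CEBPZ lay 44657 bp and 44700 bp away, with fold 4.53 and 4.29, at the start of EIF2AK2, which encodes the RNA-activated eIF2α kinase PKR. Just outside the 20 kb limit the nearest peaks were those of replicate 3 at 26287 bp from CEBPA and 26546 bp from DDIT3, and just inside it was that of replicate 2 at 14392 bp from CEBPG.

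Genes around the family were taken from 4 lists of textbook members, 80 entries in all, each counted by the same 20 kb rule. Among 20 regulators and partners of C/EBP proteins 10 had a shared locus (50%), against 32.4% of all protein-coding genes. The strongest were CELF1, an RNA-binding protein that acts on C/EBP translation (fold 5.55 in replicate 2 and 5.25 in replicate 3), PRDM16, a coregulator of brown fat (4.63 and 4.75), RUNX1, a blood transcription factor (4.41 and 4.50), and CALR, the chaperone calreticulin (4.14 and 4.52). The CELF1 locus was also at the end of PTPMT1, and those of PRDM16 and RUNX1 lay deep inside these genes, 44642 bp and 102314 bp from an end.

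Of 22 genes of the integrated stress response, the pathway that induces DDIT3, 9 had a shared locus (40.9%), among them the 4 genes of its eIF2α kinases, a subset picked out after its values were seen. The strongest were SESN2, a sestrin gene (5.78 and 4.41), the kinase genes EIF2AK2 (4.53 and 4.29) and EIF2AK1, of the heme-regulated kinase (4.35 and 4.28), and ERN1, the endoplasmic reticulum stress sensor (4.10 and 4.59). With summits required within 100 bp the count fell to 5 of 22, and the share of all protein-coding genes fell to 21% under the same setting.

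Genes that C/EBP proteins activate in liver had a shared locus in 4 of 24 cases (16.7%): HAMP, OTC, HPX and APOB. Of these the loci of HAMP (5.79 and 4.94) and HPX (4.36 and 4.08) lay 13222 bp and 11713 bp from those genes, at the ends of USF2 and APBB1. The OTC locus (4.41 and 3.64) lay within 1 kb of an end of both OTC and RPGR, and that of APOB (3.98 and 3.62) was 52 bp inside the gene. The other 20 had none. Of 14 myeloid and fat cell targets 3 had a shared locus (21.4%), namely CAMP (3.98 and 5.98; 11527 bp away), PPARG (3.73 and 4.04) and CSF3R (3.54 and 5.15; inside MRPS15). Median lower fold was 3.79 for the regulators, 3.94 for the stress genes, 3.86 for the liver targets and 3.73 for the myeloid and fat targets, against 4.0 for the 4 family members and 3.76 for all 6462 genes with a shared locus. These lists were chosen with results of these data known, and nothing particular to a list is read from its share.

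**Figure D5:**
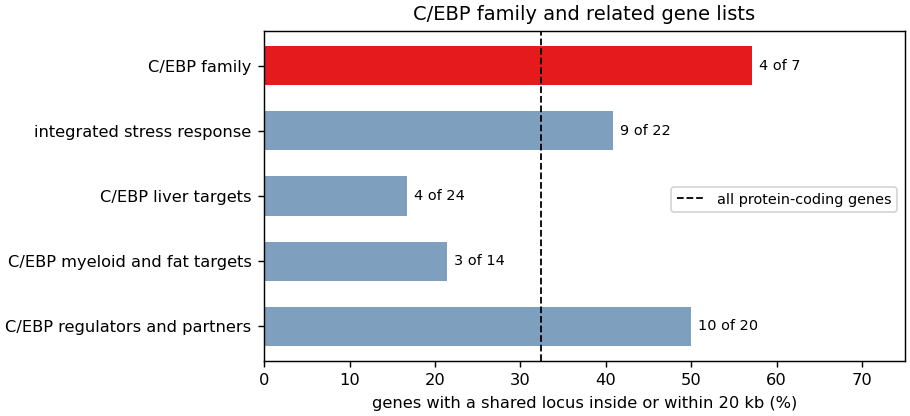
Share of genes with a shared locus inside or within 20 kb (bars, %), for the C/EBP family and the 4 related lists, with counts beside the bars and a dashed line for all protein-coding genes at 32.4%. Regulators and stress response genes lie above the line at 50% and 40.9%, and both lists of targets lie below it at 16.7% and 21.4%.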

How the data were processed

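The deposited data are 2 lists of peaks with their summits, 1 list per anti-FOXM1 library. CASAVA 1.4, BWA and MACS2 2.2.7.1 and the build GRCh38 are named, without role or order, per the submitters' processing notes. How reads were filtered and which control entered the calling is not given in the sources used here. The authors' fold enrichment is a linear ratio at the summit, beside their deposited −log10 p and −log10 q. The deposited score, the whole part of 10 times the −log10 q, was not used. Summits were placed by the offset that the authors deposited beside each peak, another kind of unit.

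Peaks on chromosomes 1 to 22 and X were used, leaving out 41 and 45 elsewhere. Coordinates are 1-based. The highest peak of each library gave a shared locus its fold, and the midpoint of their summits gave its place. Fragments and background were rebuilt by taking fold as (scaled count + 1)/(background + 1) and p as a Poisson upper tail. This gave 100% of peaks within 0.001 of the deposited −log10 p, with scales of 0.848 and 0.869 and medians of 26 and 24.5 fragments in replicates 2 and 3. The method was tested on simulated data. Fragments are given before scaling and background on the scaled depth. Intervals cover counting error only and treat the background as known. Gene positions and start sites came from RefSeq tables of GRCh38.p14, which gave no exons. No test compared groups.

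Members, lists and motifs were chosen with earlier results of these data known. Named are all members with every peak in their windows, the nearest peaks beyond, up to 4 genes of each list by the lower fold, and the 5 genes closest to CEBPA in fold. The planned protein comparison was not made. Tools were SciPy 1.17.1, pandas 2.3.3, numpy 2.4.6 and matplotlib 3.10.9 under Python 3.11.15.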

Additional observations from a re-analysis of the deposited data

How the results depend on the processing

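Of 66 results under an alternative, 39 stayed within 1.5 times the reported value. The 27 labelled as moved include the CEBPA difference in −log10 q and in fragments, units that cannot be compared with fold. The 66 also include results with 1 library left out, which counted peaks of 1 library where the reported values counted shared loci. For the CEBPA locus the reported 6 peaks were those of both libraries together. These are unlike measures, so the 39 is no gauge of stability. With −log10 q of at least 5 a shared locus within 20 kb was left at 2 members (CEBPA and CEBPB), 1 liver target, 1 regulator, 2 myeloid and fat targets and 0 stress genes, against 8.89% of all genes, and the CEBPA locus kept 3 peaks. With fold of at least 5 it was left at 1 member (CEBPA, also within 1 kb of an end), 1 regulator and 0 genes of each other list, against 1.36% of all genes, and the CEBPA locus kept 2 peaks. With summits within 100 bp it was left at 2 members (CEBPA and DDIT3), of which 1 at a gene end, and at 5 stress genes, 10 regulators, 3 liver targets and 3 myeloid and fat targets, against 21% of all genes. A window of 5 kb left 4 members, 2 liver targets, 10 regulators, 9 stress genes and 2 myeloid and fat targets, against 25.5% of all genes. A window of 50 kb gave 6 members, now with CEBPE and CEBPZ, against 41.6% of all genes. Under it the lists had 5 liver targets, 12 regulators, 12 stress genes and 4 myeloid and fat targets. The difference between the strongest CEBPA peaks was 11.4 in −log10 q and 16 in rebuilt fragments. With 1 library left out, the members with a peak in the window of 20 kb were 5 and 5, those at a gene end 3 to 4, the peaks of the CEBPA locus 2 to 4, regulators 15 to 16, stress genes 11 to 17, myeloid and fat targets 5 and 5, liver targets 5 to 6 and all genes 41.3% to 49.7%. Added after seeing the data were the limit on gene length, the CEBPA peaks of each library alone and a peak of each library without overlap, which held for 5 members. No paired analysis was possible because both libraries belong to 1 group. Peaks near the family rested on 21 to 60 fragments at the summit, so a locus called in 1 library may lie under the threshold of the other.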
